A study of Mus musculus with 6 samples.

Results

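The genes described here are the feedback genes of the Erk MAP kinase pathway: the Sprouty genes Spry1, Spry2 and Spry4, the Sprouty-related genes Spred1 and Spred2, the dual-specificity phosphatase genes Dusp4 and Dusp6, and the Ets transcription factor genes Etv1, Etv4 and Etv5. They were chosen by name, and 9 of the 10 had a row among the 18312 gene rows of the profile. Spry4 was not analysed here. The study concerned the mRNA targets of Brf1 (gene Zfp36l1) and Brf2 (gene Zfp36l2), zinc finger proteins that attach to AU-rich stretches of an mRNA's 3′ untranslated region and bring in the decay machinery.

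All 6 libraries in the labels came from wild-type E14 cells, a mouse embryonic stem cell line of 129/Ola background, kept in medium with 15% serum and 1000 units per ml of LIF. In 2 libraries total RNA was sequenced without an antibody. Another 2 held RNA that came down from cytoplasmic extract with an antibody that recognises both Brf1 and Brf2, so these proteins are not separated. The last 2 held RNA that came down with rabbit IgG, as the background control. The labels do not say whether the libraries of a group came from separate cultures. One profile of 22625281 counts was analysed, and 0 of its columns name a library. It was therefore placed in no group, and no comparison between groups was made. The levels below can be levels in cells or in precipitated RNA, and they measure neither binding nor enrichment. Each value has no replicate, and every interval covers counting error only.

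In embryonic stem cells the growth factor Fgf4, made by the cells themselves, signals through Fgf receptors, Ras, Raf and Mek to the Erk kinases, and this signal readies the cells to leave the pluripotent state. The feedback genes are switched on by the pathway and act back on it. Sprouty and Spred proteins hold down Ras and Raf at the membrane, Dusp phosphatases remove the activating phosphates from Erk, and the Etv factors of the PEA3 group carry the signal to target genes.

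All 9 genes had at least 1 FPKM (fragments scaled to the effective transcript length and to the total count), against 56.0% of all gene rows, and all 9 had at least 5 FPKM, against 38.3%. Their median was 18.1 FPKM, and the median over all gene rows was 1.94. The levels spanned a 12.7-fold range, from Spry1 at 9.65 FPKM to Etv5 at 123. All 9 lay in the top 30% of genes by FPKM, and Etv5 and Spry2 were the 2 in the top 10%. Together the 9 genes held 27408 counts, or 0.121% of the total (Wilson 95% interval 0.120 to 0.123), and Etv5 alone held 46.4% of these. Spry2 held most of the FPKM of the 2 measured Sprouty genes and Etv5 most of that of the 3 Etv genes, whereas the Spred and Dusp pairs were closer to even.

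**Figure D1:**
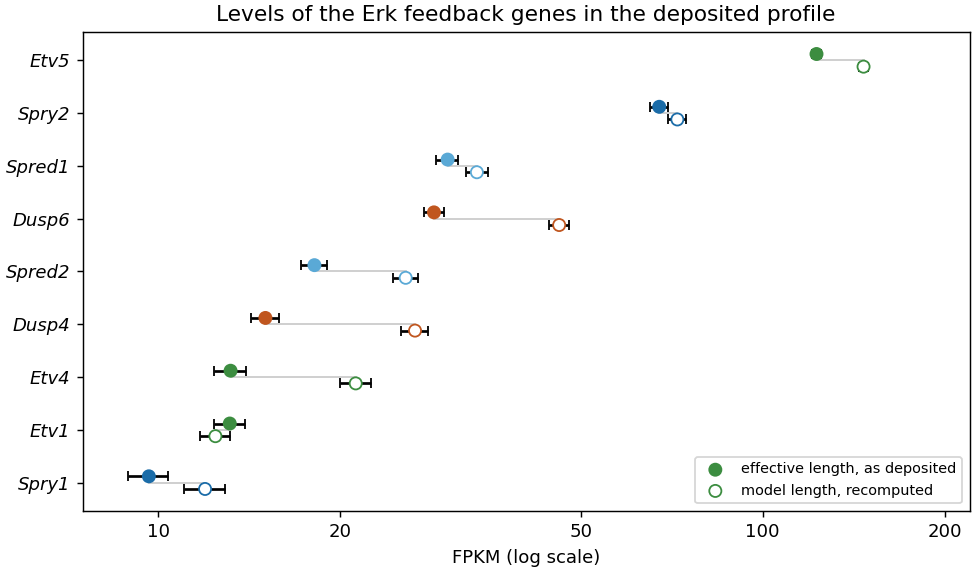
Level of each Erk feedback gene in FPKM on a log axis, coloured by family. Filled points use the effective length as deposited, open points use the model length, and bars are counting intervals of 2 square roots of the count on either side. Etv5 (123) and Spry2 (67.5) stand above the other 7 genes on both lengths.

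Among the Sprouty genes, Spry2 was the more abundant. It had 3413 counts and 67.5 FPKM (interval 65.2 to 69.8), rank 891 among all genes. Spry1 had 674 counts and 9.65 FPKM (8.91 to 10.4), rank 5130, the lowest level of the 9. Both genes encode membrane-associated inhibitors of receptor tyrosine kinase signalling. The level of Spry2 was 6.99 times that of Spry1 (exact binomial 95% interval 6.43 to 7.60), and Spry2 made up 87.5% of their summed FPKM.

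The 3′ untranslated regions of both Sprouty mRNAs carried 2 copies each of TATTTAT, the 7-letter core of the AU-rich element that ZFP36 family proteins recognise. These sites are shown because they match that core and come in pairs in both regions. Each is given 5′ to 3′ on the mRNA strand, as DNA letters with the heptamer in capitals, from the GENCODE M21 transcript nearest in length to the table's model. Coordinates are those of that annotation on GRCm38, another build than the mm9 build of the table.

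Spry1 site 1, chr3:37644409-37644437, + strand: attgtaaagaaTATTTATtatgcgaatct
Spry1 site 2, chr3:37644441-37644469, + strand: ttattttatgaTATTTATtgcaaaagact
Spry2 site 1, chr14:105892092-105892120, - strand: agtgtaaagaaTATTTATttgaagtttta
Spry2 site 2, chr14:105892053-105892081, - strand: aaaaaaaagaaTATTTATtttaagaggca

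The paired sites began 32 nt apart in Spry1, in a region of 1047 nt, and 39 nt apart in Spry2, in a region of 856 nt. All 4 lay near the 3′ end, with 117 to 172 nt left after each heptamer. At least 2 heptamers were found in 5.90% of regions within 25% of the length of Spry1's and in 4.37% of those like Spry2's. These shares are matched for length and not for AT content. Spry2's region had 66.5% AT, against a median of 55.4% for regions of like length. For Spry1 both values were 55.7%. The first sites of the 2 genes resembled each other beyond the heptamer. The longest identical run between the Spry1 and Spry2 transcripts, tgtaaagaaTATTTATt (17 nt), covers them. It was present in 2 of the 17568 regions searched, those of Spry1 and Spry2. A shorter run, aaagaaTATTTATt (14 nt), is common to 3 of the 4 sites, all but the second of Spry1. It was present in 5 regions, those of Spry1, Spry2, Lmnb2, Naip1 and Olfr33. Both runs were picked out after the sequences had been seen, and a match shows only that the letters are there.

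The Spred genes encode relatives of Sprouty that bring the Ras inactivator neurofibromin to the membrane. Spred1 had 2284 counts and 30.1 FPKM (28.9 to 31.4), rank 2104. Spred2 had 1669 counts and 18.1 FPKM (17.3 to 19.0), rank 3336. Spred1 was 1.66 times as high as Spred2 (1.56 to 1.77), and made up 62.4% of their sum. The third gene of the family, Spred3, was lower at 2.88 FPKM (2.56 to 3.21), and Spred2 was 6.29 times as high (5.58 to 7.12). No TATTTAT was found in the regions read for Spred1 and Spred2. For Spred1 the transcript nearest in length, of those with an annotated 3′ untranslated region, had 1440 nt, against 2997 nt of the table's model, and a region of 663 nt. The longest annotated Spred1 region, 4330 nt, held 3 copies, and the longest of Spred2, 2579 nt, held 1.

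Of the phosphatases, Dusp6 is the cytoplasmic one that is selective for Erk, and Dusp4 acts in the nucleus. Dusp6 had 2916 counts and 28.6 FPKM (27.5 to 29.7), rank 2231. Dusp4 had 1461 counts and 15.1 FPKM (14.3 to 15.8), rank 3830. Dusp6 was therefore 1.90 times as high as Dusp4 (1.78 to 2.02). Neither region held TATTTAT. Spred1 and Dusp6 were neighbours in the order of levels, and their intervals overlapped.

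Of the Etv genes, Etv5 was far above its paralogs. It had 12706 counts and 123 FPKM (121 to 125), rank 447 and the highest level of the 9. Etv4 had 1122 counts and 13.2 FPKM (12.4 to 13.96), and Etv1 had 1163 counts and 13.1 FPKM (12.4 to 13.9). These 2 could not be told apart on the deposited scale, with a ratio of 1.00 (0.923 to 1.09). Etv5 was 9.32 times as high as Etv4 (8.77 to 9.92) and held 82.4% of the summed FPKM of the 3 genes. All 3 encode PEA3-group Ets factors, which are long established as targets of Fgf signalling.

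Etv1 and Etv5 each held 1 TATTTAT, in regions of 2434 and 2154 nt, where 44.5% and 41.6% of regions of like length have at least 1. These sites are shown for comparison with the Sprouty ones, since neither region holds the 14-nt run.

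Etv1 site, chr12:38867864-38867892, + strand: aaccagcgaagTATTTATtggatagacac
Etv5 site, chr16:22381762-22381790, - strand: tttcataagcaTATTTATagctttctaat

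Over the family as a whole, 4 of the 9 genes held TATTTAT, against 25.9% of the 17568 regions. The share was 27.8% in regions of genes with at least 1 FPKM. The members' regions were longer, with a median of 1111 nt against 856 nt over all regions, and these shares are not matched for length. The 9-letter form TTATTTATT, which contains the heptamer, was found in 0 of the 9 and in 6.88% of all regions. The pentamer ATTTA, which lies inside both, was found in 8 of the 9, with Etv4 as the exception, and in 63.0% of all regions. Etv1 had the most pentamers, 8, and 16.7% of regions of like length had as many. Etv4 had the lowest AT content of the 9 regions, 44.5%, and Spry2 the highest, 66.5%, against a median of 55.4% for regions like Spry2's in length. These counts are descriptions of annotated sequence. Motifs were searched on the mRNA strand only, and whether any site was bound was not tested.

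**Figure D2:**
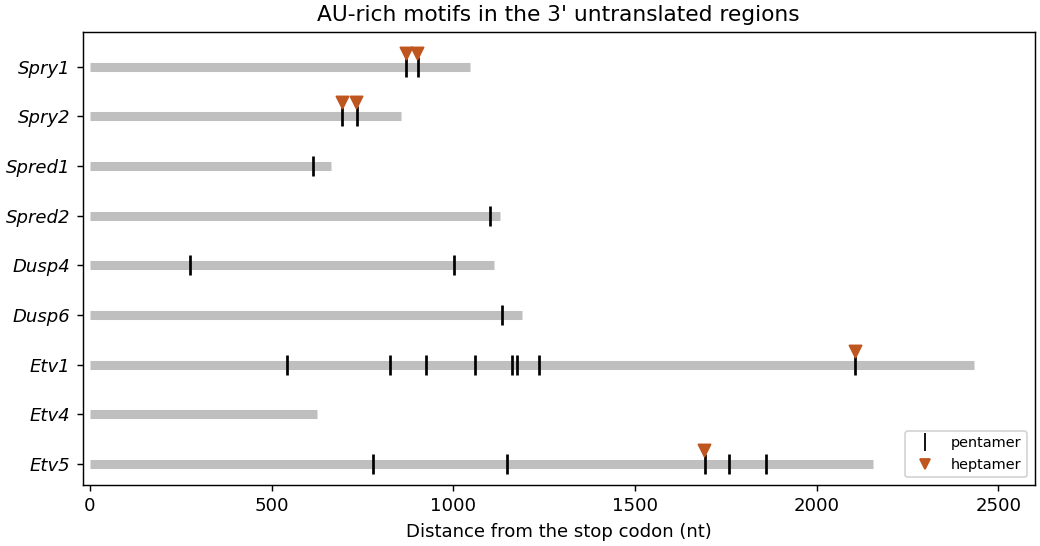
Positions of the pentamer (black ticks) and of the heptamer (orange triangles) along each 3′ untranslated region (grey bars), in nt from the stop codon. Spry1 and Spry2 each show a close pair of heptamers near the 3′ end, Etv1 and Etv5 show 1 each, and Etv4 shows neither motif.

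Paralogs could in principle exchange reads, so the transcripts were compared letter by letter. The longest run shared by members was 23 nt, between Etv5 and each of Etv1 and Etv4. Shared runs within the Sprouty and Spred pairs were 17 nt, and Dusp4 and Dusp6 shared 13 nt. Runs of 17 nt were also shared between families, by Spry2 with Dusp6 and by Dusp4 with Etv5. Processed pseudogenes were closer for Etv5, Etv1 and Spred2, and an overlapping annotated gene was closer for Spry1. Of all 50-nt stretches of the Etv5 transcript, 28.3% also occurred in Gm4798 on chromosome 10, and 24.4% of those of Etv1 occurred in Gm5454 on chromosome 13. For Spred2 the share was 2.21%, in Gm14612. For Spry1 it was 7.81%, in Gm42922, which overlaps Spry1 on the opposite strand over 285 nt. None of these 4 genes had a row in the profile, and the total and unique counts differed in 0 rows. Their part in the counts of Etv5, Etv1, Spred2 and Spry1 was not tested. For Spry2, Spred1, Dusp4, Dusp6 and Etv4 no 50-nt stretch of the transcript compared occurred in another gene. For Spred1 that transcript had 1440 nt, against 2997 nt of the table's model, so much of the model was not compared.

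The order within the set depends on the length used. The effective length was 1.27 times the model length in the median gene, but 1.77 times for Dusp4, 1.61 times for Dusp6 and Etv4, and 0.947 times for Etv1. On the model length Dusp6, at 46.1 FPKM, passed Spred1, at 33.7, and their intervals no longer overlapped. Dusp4 at 26.6 and Spred2 at 25.7 changed places, with overlapping intervals. Etv4 at 21.2 was 1.71 times as high as Etv1 at 12.4 (1.57 to 1.85), and Etv1 and Spry1, at 11.96, then overlapped. Etv5 at 147 and Spry2 at 72.3 kept the top places. Etv5 was then 6.92 times as high as Etv4 (6.51 to 7.36) and 11.8 times as high as Etv1 (11.1 to 12.6), and Spry2 was 6.04 times as high as Spry1 (5.56 to 6.57). The GC content of the matched transcript was 56.0% for Dusp4, 49.0% for Dusp6, 58.8% for Etv4 and 42.5% for Etv1. It was 53.5% for Spred2, 56.15% for Spry1, 50.6% for Etv5, 42.4% for Spred1 and 46.2% for Spry2. The effective lengths of these last genes were 1.42, 1.24, 1.20, 1.12 and 1.07 times the model length, in that order. The median GC content over all matched genes was 49.7%. Whether GC content bears on the effective length of the members was not tested.

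**Figure D3:**
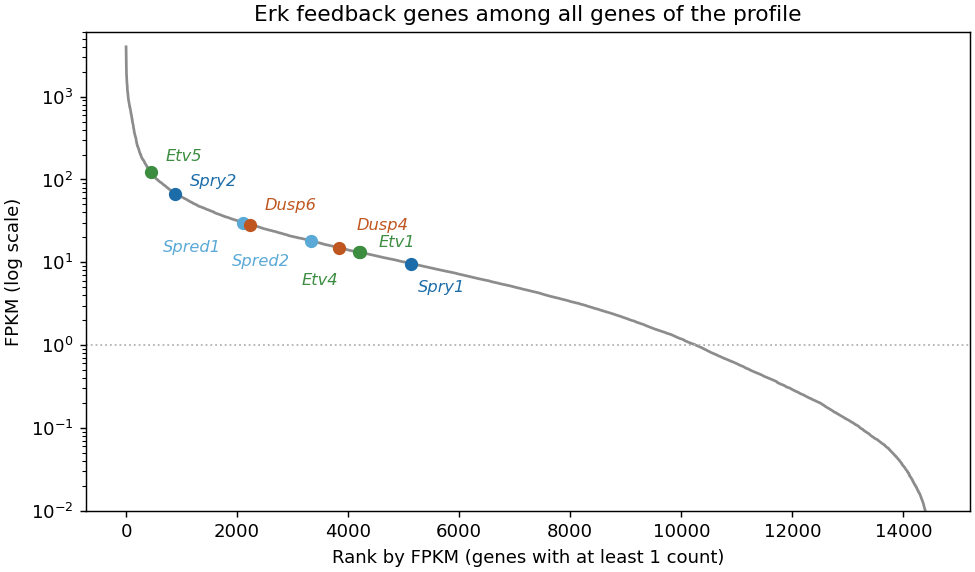
FPKM on a log axis against rank for all genes with at least 1 count (grey line), with the Erk feedback genes as coloured points and a dotted line at 1 FPKM. The 9 genes run from rank 447 (Etv5) to rank 5130 (Spry1).

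The other genes of the pathway were read from lists of known regulators. Each list count at 1 FPKM below is to be read against the 56.0% of all gene rows that reached it. Of 7 other MAP kinase phosphatases measured, 5 reached 1 FPKM, and the list's median was 4.70. The highest was Dusp9, a cytoplasmic phosphatase selective for Erk, at 32.7 FPKM (31.6 to 33.8). It was 1.14 times as high as Dusp6 (1.09 to 1.20), and 1.31 times on the model length (1.25 to 1.38). The lowest was Dusp2 at 0.666. Of 11 other Ets factors, 8 reached 1 FPKM, and the list's median was 3.49. Gabpa, a broadly expressed Ets factor, was highest at 41.6, and Erg had 0 counts, which allows up to 0.0323 FPKM. Etv5 was thus above all 11, and Etv1 and Etv4 were each above 10 of them.

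Capicua (Cic), the repressor of Etv and other Erk target genes that Erk relieves, had 10.9 FPKM (10.4 to 11.4). Its partner Atxn1l had 10.6 and the related Atxn1 0.387. Of 4 genes for the ubiquitin ligase that degrades Etv factors, 3 were measured and all 3 had at least 1 FPKM, with Rfwd2 (Cop1) highest at 17.3 and Det1 lowest at 3.23. All 11 measured partners of Sprouty, Spred and Ras reached 1 FPKM, around a median of 8.96. Ppp2ca, a catalytic subunit of the phosphatase PP2A, was highest at 143, and the ubiquitin ligase Siah2 was lowest at 1.41. Nf1, which encodes the neurofibromin that Spred proteins recruit, had 2.87 FPKM.

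All 6 genes listed as other negative regulators reached 1 FPKM, around a median of 10.2. Pebp1, an inhibitor of Raf, was highest at 174, and Flrt3 was lowest at 1.37. Flrt3 is not established as a negative regulator of the pathway, and it counts in this list's number and median. The next lowest was Lrig1 at 2.32. Il17rd (Sef), an antagonist of Fgf signalling that is itself induced by it, had 18.5 FPKM. Of the cascade from Fgf4 to Erk all 9 genes analysed reached 1 FPKM, around a median of 23.6, with Fgfr2 lowest at 4.73. The ligand gene Fgf4 had 29.0 FPKM (27.8 to 30.2), an interval that overlaps those of Spred1 and Dusp6. On the model length it had 34.7, below Dusp6 at 46.1 (44.4 to 47.8) and within the interval of Spred1 (32.3 to 35.1).

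**Figure D4:**
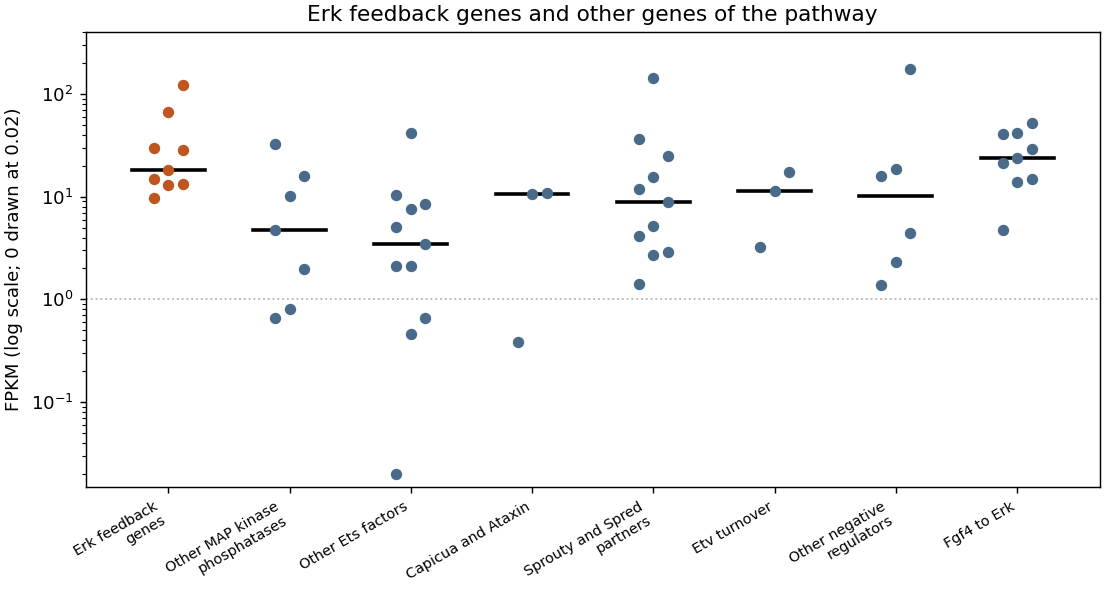
FPKM on a log axis of the 9 Erk feedback genes (orange) and of the listed pathway genes (blue), 1 point per gene, with black bars at the medians, a dotted line at 1 FPKM and Erg, at 0 counts, drawn at 0.02. The feedback genes have a median of 18.1, between those of the Etv turnover genes (11.3, 3 measured) and of the cascade (23.6).

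The profile carried the markers of the labelled cell type. All 6 embryonic stem cell markers had at least 1 FPKM, from Esrrb at 40.6 to Pou5f1 at 605. Markers of primitive endoderm, trophoblast, fibroblasts and neural cells were all below these. At least 1 FPKM was reached by 1 of 3 for primitive endoderm and 2 of 3 for trophoblast. It was also reached by 2 of 4 for fibroblasts and 2 of 3 for neural cells. Over all gene rows the share was 56.0% and the median 1.94 FPKM, so these counts do not set such markers below a typical gene. In the lists of these other cells all levels were under 5 FPKM except that of Nes at 20.1. Sox17 had 5 counts and Elf5 had 3. All 3 markers of the primed epiblast, a later pluripotent state, had at least 1 FPKM, with Dnmt3b highest at 106 and Fgf5 lowest at 3.83. The part of other cells in the levels of the feedback genes was not tested.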

How the data were processed

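RNA immunoprecipitation and total RNA libraries were sequenced. The submitters' processing notes name the mm9 build, eXpress 1.1.1, Bowtie 1.1.2 and CASAVA 1.8.2, and how each was used is not given in the sources here. The authors deposited counts and estimated counts per gene model, which were equal in all rows. FPKM was deposited by the authors with bounds that lie, for the members, 2 square roots of the count on either side. A nameless last row, the total of 22625281 counts, was dropped. Whether counting used strand is not stated.

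Computed here were levels on the model length, ranks, exact binomial intervals of ratios and Wilson intervals of shares. Of 18312 symbols, 99.1% matched GENCODE M21, and 17568 genes had a 3′ untranslated region of at least 50 nt. The transcript nearest in length to the model was read. The planned group comparison (limma) was not run, because no column names a library. No gene was named for a like pattern, since 1 profile has none. Some genes of a pathway list are not reported here. All members were named. From each pathway or marker list the highest, the lowest and any gene at 0 counts could be named. Others (Spred3 and genes with a known role beside a member) were added after their values were seen. Members and lists were chosen with earlier results of these data known. Motif counting and run matching were tested on simulated sequences. Analyses ran in Python 3.11.15 with matplotlib 3.10.9, scipy 1.17.1, pandas 2.3.3 and numpy 2.4.6.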

Additional observations from a re-analysis of the deposited data

How the results depend on the processing

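On the model length instead of the effective one, the members' median was 26.6 FPKM, against 18.1. Of the 9 members, 8 were higher beyond their interval and Etv1 was within it, while the median over all gene rows went from 1.94 to 2.59. All 9 members kept at least 1 FPKM on the model length, at least 5 FPKM, and at least 10 counts. The 8 pathway list counts stayed within 1.5 times on the model length and when 10 counts were also required. When 5 FPKM were required, the counts fell to 0 Sprouty and Spred relatives, 3 MAP kinase phosphatases, 5 Ets factors, 7 partners and 3 other negative regulators. Smaller falls, within 1.5 times, were to 2 genes of Etv turnover and 8 of the cascade. The Capicua list stayed at 2. Of all gene rows, 38.3% had at least 5 FPKM. TATTTAT was found in 4 members in the transcript nearest in length, in 6 in the longest region and in 2, Spry1 and Spry2, in the shortest. Shorter regions hold fewer letters to match. With 36-nt stretches, a choice made after the table was seen, the share found in another gene was 32.5% for Etv5, 26.2% for Etv1, 8.91% for Spry1, 5.11% for Spred2 and 0.682% for Spry2. No paired analysis was possible because the columns carry no replicate number or group, and for the same reason no library could be left out.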

Other observations

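The atypical dual-specificity phosphatases, relatives of Dusp4 and Dusp6 that mostly lack the domain for binding MAP kinases, were listed after the table was seen. Of 14 measured, 10 reached 1 FPKM, against 56.0% of all gene rows, and the median was 3.50. The highest were Dusp12 at 18.0 FPKM (16.7 to 19.4) and Dusp11 at 17.1 (16.4 to 17.8), whose intervals overlap. Both were above Dusp4 at 15.1 and below Dusp6 at 28.6. On the model length Dusp12 had 22.8 and Dusp11 15.2, both below Dusp4 at 26.6. Dusp13 and Dusp21 had 0 counts, which allows up to 0.0508 and 0.186 FPKM.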
